A study of Drosophila melanogaster with 12 samples.

Results

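The genes osk, nos, vas, bcd, exu, grk, orb and CycB, which direct egg formation and body patterning in Drosophila melanogaster, were followed across sex and genotype. The members were all probe sets that the array's annotation assigns to 1 of these symbols alone, which gave 12 of the 18952 probe sets on the array, for 8 of the 11981 genes that have a probe set of their own. The gene osk has 3 of them, bcd and exu have 2 each and the others have 1, and nos is listed there as nanos. One more probe set, which pairs vas with a second gene, was left out.

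Whole adult flies were profiled with 12 arrays of the type Affymetrix Drosophila Genome 2.0, to find how a defect of mitochondrial translation alters gene expression. The 4 groups were tko25t females, wild-type females, tko25t males and wild-type males, with 3 arrays each. All flies were 1 day old, the females were virgin, and a separate group of flies was homogenised for each array. The tko25t allele is a point mutation in the X-linked gene tko, which encodes mitoribosomal protein S12, so mutant females carried it on both X chromosomes and mutant males on their only one. Mutants were F1 flies of tko25t Canton S mothers and tko25t Oregon R fathers, after backcrossing of the allele into both strains and maintenance over a balancer. Wild-type flies were F1 offspring of the same strains without the allele. Both sexes came from 3 crosses, so a male and a female array may share a cross.

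A Drosophila oocyte is supplied by nurse cells with RNAs that set up the embryo. Maternal osk RNA is held at the posterior pole, where its protein assembles the germ plasm, and bcd RNA is anchored at the anterior pole. Most such transcripts are made in the ovarian germ line, which males lack, although some of the genes also act in the testis.

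The values were MAS5 signals on a linear scale. A signal can be set against the same probe set on another array, but not against another probe set. Arrays of 1 group correlated at 0.942 to 0.987 on the log2 scale. The probe set of tko read 309.8 ± 50.3 in tko25t males and 216 ± 30.6 in wild-type males, and 492 ± 45.6 in tko25t females and 518 ± 22.7 in wild-type females (SD, n = 3 each), but it does not detect a point mutation and checks no label. Chorion, vitelline membrane and yolk protein transcripts, summed over 18 genes, marked the ovary-bearing flies, with 76443 to 86491 in tko25t females and 67614 to 85139 in wild-type females. Some arrays carried more transcripts of the other sex than the rest. They were wild-type male replicates 1 and 2, at 7.03% and 4.15% of the mean eggshell and yolk sum of the 6 female arrays, against 0.347% to 0.620% on the tko25t male arrays and 0.611% on wild-type male replicate 3. The third was tko25t female replicate 1, at 4.71% of the mean testis marker sum of the 6 male arrays (18 genes), against 0.891% to 1.80% on the other female arrays. A control for 18S ribosomal RNA also separated the male groups, with 194 to 357 on the tko25t male arrays and 3895 to 4075 on the wild-type male arrays for its middle probe set. RNA preparation and genotype therefore cannot be told apart in males. In females the same probe set overlapped, with 94.7 to 189.6 in tko25t and 90.8 to 112 in wild type, and so did the 5′ probe set. The 3′ probe set did not, with 40.1 to 61.0 in tko25t females and 73.8 to 102.8 in wild-type females (exact permutation test, p = 0.1, the smallest p that 3 arrays against 3 allow), and its part in the female comparisons was not tested. The ratio of 3′ to 5′ signal of Act5C, a guide to RNA integrity, was 3.09 to 3.68 in tko25t females and 3.27 to 3.91 in wild-type females, against 5.29 to 6.29 in tko25t males and 3.94 to 7.49 in wild-type males, so it differed between the sexes rather than along genotype.

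The main pattern of these genes was their sex. Of 11 member probe sets tested, 9 were higher and 1 was lower in females than in males, both in tko25t and in wild type (limma, adjusted p under 0.05). Only 4 of the 11 were also bright enough to be tested in males. The others, of osk, nos, bcd and orb, entered this fit through their female signal alone, which favours a call higher in females. The count and the median of the 11 therefore partly reflect the limit on signal. Of all probe sets tested 66.5% were called in either direction in tko25t and 72.2% in wild type. Calls higher in females made up 40.2% of all probe sets in tko25t and 43.0% in wild type, and calls lower in females 26.3% in tko25t and 29.2% in wild type. In both genotypes the 9 probe sets stood higher on every female than on every male array, as did 43.6% of all probe sets in tko25t and 44.0% in wild type, and the shares that stood lower on every female array were 28.5% in tko25t and 30.1% in wild type. The median log2 difference of the 11 was 5.59 in tko25t and 4.81 in wild type, against 0.16 in tko25t and 0.17 in wild type over all 11566 probe sets tested. All log2 differences were taken after adding 11.6, the median 25th percentile of signal, which makes them smaller at low signal. Many male signals lay near or under this offset, and there the offset sets the size of a difference, so the members are not ranked by it. In RNA of whole flies, fewer cells of a type and less RNA per cell cannot be told apart.

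**Figure D1:**
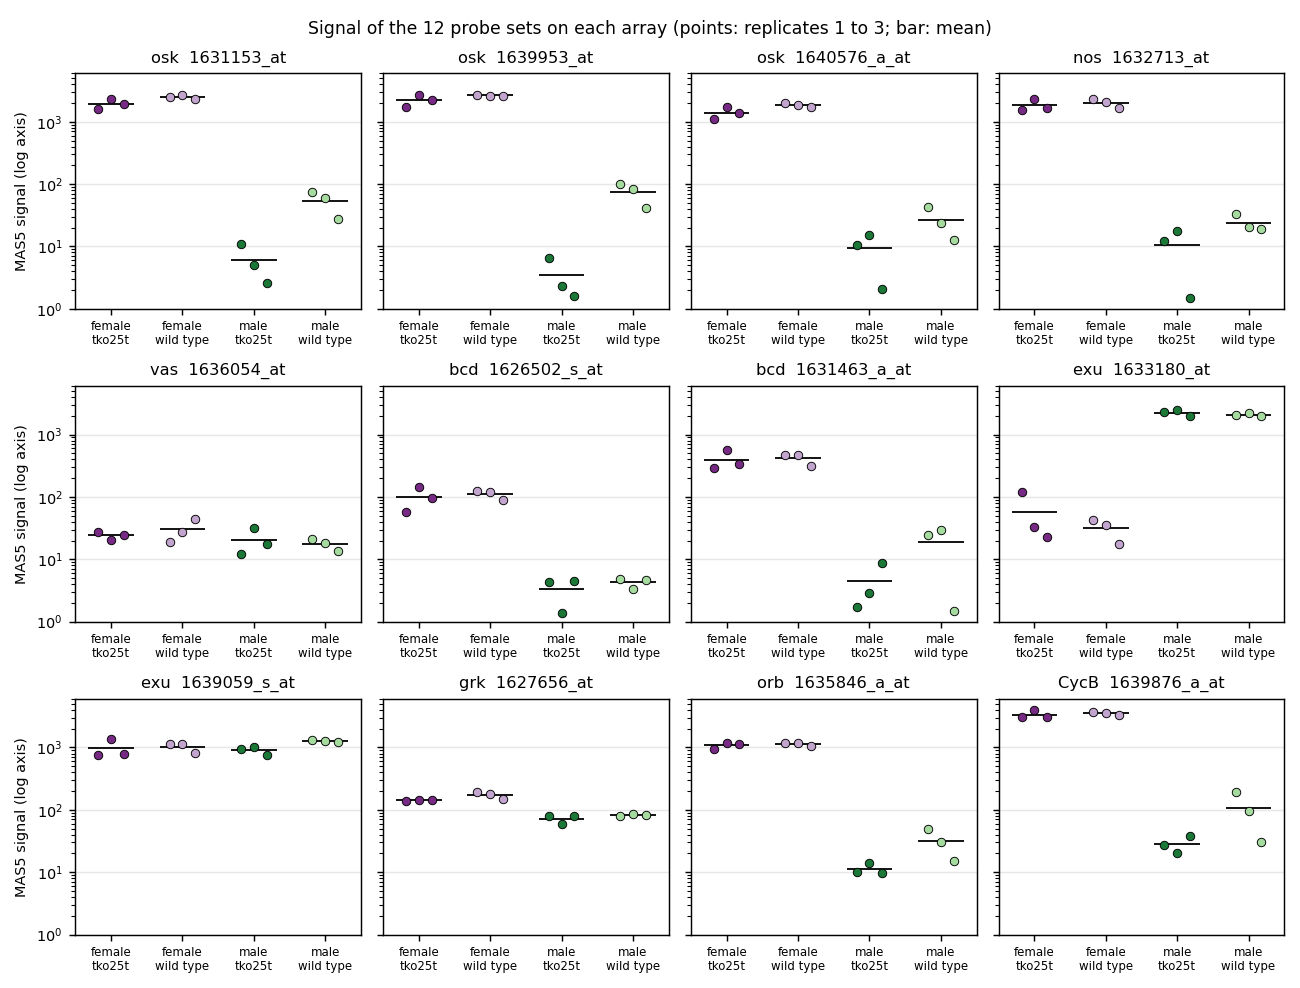
Signal of the 12 member probe sets (MAS5, log axis) on each of the 12 arrays, in 4 groups of 3 replicates, with a bar at each group mean. On every female array 9 probe sets stood higher than on every male array, exu 1633180_at stood lower, and vas 1636054_at and exu 1639059_s_at overlapped between the sexes.

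Among the genes of the posterior pole, osk was among those with a female signal far above the male one. Probe set 1639953_at gave signals of 1731, 2714 and 2262 on the tko25t female arrays, against 2694, 2631 and 2632 on the wild-type female arrays. The male arrays gave 6.6, 2.3 and 1.6 in tko25t, against 101.5, 82.2 and 41.7 in wild type. Every female array was thus far above every male array, the female genotypes overlapped, and the male genotypes did not. The sex difference was 7.21 on the log2 scale in tko25t (SE 0.24, limma adjusted p = 6.17e-10) and 5.01 in wild type (SE 0.24, adjusted p = 2.48e-09). All 3 tko25t male signals lay under the offset, and the tko25t value was 5.49 with 4 times the offset and 8.51 with 0.25 times the offset.

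The other probe sets of osk gave the same order of groups. Probe set 1631153_at read 1589, 2337 and 1905 in tko25t females, against 2498, 2646 and 2314 in wild-type females. In males it read 10.8, 5.0 and 2.6 in tko25t, against 74.9, 59.1 and 27.1 in wild type. As with the first probe set, the male genotypes were apart and the female genotypes overlapped, here by 1 array. Probe set 1640576_a_at, built to match several transcripts of the gene, read 1087, 1735 and 1395 in tko25t females, against 1969.7, 1851 and 1712 in wild-type females. Its male signals were 10.6, 15.5 and 2.1 in tko25t, against 43.7, 24.2 and 12.9 in wild type, and these overlapped. The female-to-male differences of these 2 probe sets were 6.79 and 6.11 in tko25t, and 5.33 and 5.67 in wild type.

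The gene nos encodes a translational repressor that acts in the posterior of the embryo and in the germ line. Its probe set 1632713_at read 1524, 2317 and 1675 in tko25t females, against 2299, 2089.8 and 1651 in wild-type females. On the male arrays it read 12.3, 17.7 and 1.5 in tko25t, against 32.9, 20.2 and 19.0 in wild type. The log2 difference between the sexes was 6.44 in tko25t (SE 0.27, limma adjusted p = 1.47e-09) and 5.84 in wild type (SE 0.27, adjusted p = 1.82e-09).

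The probe set of vas, which encodes a DEAD-box RNA helicase of the germ plasm, stayed dim in every group. The array's annotation gives it under a gene identifier that the RefSeq table used here does not list, and in that table vas overlaps the gene solo, so the probe set may not report vas. Probe set 1636054_at read 27.5, 20.7 and 24.8 in tko25t females, against 18.7, 27.4 and 45.0 in wild-type females. In males it read 12, 32 and 17.4 in tko25t, against 21.0, 18.5 and 13.7 in wild type. All 4 groups overlapped, and the probe set was tested in neither sex because its mean signal was under the lowest mean tested, 34 in females and 43.7 in males. In a fit of all probe sets its female-to-male difference was 0.21 in tko25t (limma adjusted p = 0.613, 95% interval -0.39 to 0.80) and 0.48 in wild type (adjusted p = 0.175, interval -0.12 to 1.07).

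At the anterior pole, bcd encodes the homeodomain morphogen whose RNA is placed there during oogenesis. Probe set 1631463_a_at read 291, 569.5 and 333 in tko25t females, against 476, 471 and 314.5 in wild-type females. Its male signals were 1.7, 2.9 and 8.7 in tko25t, against 24.5, 30.0 and 1.5 in wild type. Probe set 1626502_s_at was dimmer, with 57.4, 144 and 94.8 in tko25t females, against 126, 121 and 88.4 in wild-type females. All 6 male arrays read 1.4 to 4.8 with it. Both probe sets were higher in females, by 4.64 and 2.81 on the log2 scale in tko25t and by 3.98 and 2.95 in wild type (limma adjusted p between 3.41e-07 and 1.14e-06 for these 4 values). The female genotypes overlapped with each.

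Of the probe sets of exu, whose protein is needed to localise bcd RNA in the oocyte and also acts in spermatogenesis, 1 was lower in females and the other was not called. Probe set 1633180_at read 118, 33.2 and 22.4 in tko25t females, against 43.3, 35.7 and 17.8 in wild-type females. On the male arrays it read 2265.5, 2485 and 1953 in tko25t, against 2078, 2221 and 1969 in wild type. It was the 1 member probe set that was lower in females, by a log2 difference of -5.26 in tko25t (SE 0.38, limma adjusted p = 9.87e-08) and -5.63 in wild type (SE 0.38, adjusted p = 4.13e-08). The other probe set, 1639059_s_at, read 748, 1373 and 799 in tko25t females, against 1125, 1126 and 817 in wild-type females. Its male signals were 960.5, 1009.8 and 771 in tko25t, against 1341, 1253 and 1204 in wild type. It did not pass the test between the sexes in tko25t (log2 difference 0.05, 95% interval -0.40 to 0.49) or in wild type (-0.32, interval -0.77 to 0.13), although the female and male arrays of wild type did not overlap. The annotation assigns both probe sets to exu, and which transcripts each of them detects was not examined.

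The gene grk encodes a TGF-alpha-like ligand that passes from the oocyte to the follicle cells and sets the dorsal side of the egg. Its probe set 1627656_at read 138, 143 and 144 in tko25t females, against 196, 177 and 149 in wild-type females. On the male arrays it read 79.1, 58.3 and 79.7 in tko25t, against 79.7, 87.3 and 83.5 in wild type. The female genotypes did not overlap. Females stood 1.96-fold above males in tko25t (log2 difference 0.88, SE 0.14, limma adjusted p = 0.000112) and 2.08-fold in wild type (0.96, SE 0.14, adjusted p = 4.44e-05), the smallest of the 9 female-high differences in either genotype.

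The protein of orb binds RNA and controls when osk and other localised messages are translated. Its probe set 1635846_a_at read 952, 1191 and 1122 in tko25t females, against 1201, 1163 and 1064 in wild-type females. Its male signals were 10.0, 13.9 and 9.6 in tko25t, against 49.5, 30.8 and 15.3 in wild type. The sex difference was 5.59 on the log2 scale in tko25t and 4.81 in wild type (SE 0.23 each, limma adjusted p = 1.27e-09 and 2.15e-09).

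CycB encodes a mitotic cyclin, and its maternal RNA is stored in the egg. Its probe set 1639876_a_at read 3058, 3973 and 3079.9 in tko25t females, against 3777, 3635.5 and 3277 in wild-type females. On the male arrays it read 27.3, 20.5 and 38.7 in tko25t, against 193.5, 96.3 and 30.9 in wild type, so that wild-type male replicate 3 lay among the tko25t males. The sex difference was 6.40 in tko25t (SE 0.41, limma adjusted p = 2.88e-08) and 5.19 in wild type (SE 0.41, adjusted p = 1.41e-07).

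Within females, no member probe set separated the genotypes past the threshold. Of the 11 tested in females, 0 were called with limma and 2, both of osk, had an unadjusted p under 0.05, against 2.05% called and 14.4% at an unadjusted p under 0.05 among all 9855 probe sets. SAM, the test named in the methods of the study, called none of them. It also asked for a fold of 1.5, which only exu 1633180_at reached between its means (ratio 1.80). The others could not be called by it. In 10 of 11 cases the differences were negative, with a median of -0.14 against -0.04 over all probe sets. The log2 differences of osk were -0.37 with 1631153_at (SE 0.15, limma adjusted p = 0.302), -0.41 with 1640576_a_at (SE 0.17, adjusted p = 0.309) and -0.27 with 1639953_at (SE 0.16, adjusted p = 0.482). Mean signals of the first were 1944 ± 376 in tko25t and 2486 ± 166 in wild-type females (SD, n = 3 each), a ratio of 0.782.

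The 95% intervals bound the size of the change that these arrays leave possible. For grk the difference was -0.27, with an interval from -0.56 to 0.03, and it was the only member tested in females whose genotypes did not overlap, as for 10.6% of all probe sets in that direction. For CycB it was -0.09 (interval -0.38 to 0.21) and for orb -0.07 (interval -0.34 to 0.19), the narrowest intervals of the members. The interval of nos ran from -0.56 to 0.28 around -0.14. Those of bcd were wider, from -0.72 to 0.49 with 1631463_a_at and from -0.88 to 0.43 with 1626502_s_at. Probe set 1639059_s_at of exu gave -0.11 (interval -0.66 to 0.44). The dim signal of exu 1633180_at in females gave 0.46 (interval -0.66 to 1.58), the only positive value among the 11 tested.

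**Figure D2:**
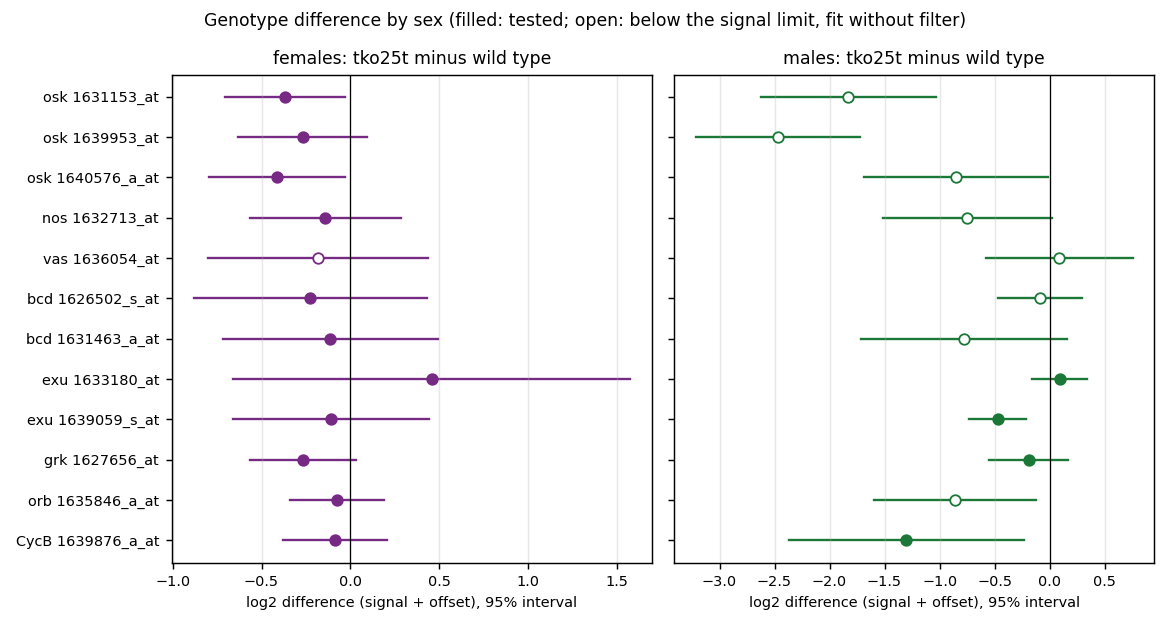
Log2 difference between tko25t and wild type for each member probe set, in females (left) and in males (right), with 95% intervals. Filled points were tested, and open points lay under the signal limit of that sex and come from a fit without a limit. Most intervals in females include 0, while 2 probe sets of osk in males lie at -1.83 and -2.47, against tko25t signals at the floor.

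The member probe sets moved together across the 6 female arrays. For the 10 member probe sets with a substantial female signal (all but vas and exu 1633180_at), each signal was divided by its mean over the 6 female arrays. The median of the 10 was 0.734, 1.13 and 0.879 on tko25t replicates 1, 2 and 3, against 1.15, 1.12 and 0.945 on the wild-type replicates. Replicate 1 of tko25t was the lowest of the 6 arrays for all 10 probe sets, with 0.545 to 0.882 of the mean. Replicate 2 of tko25t was the highest for 6 of the 10, and wild-type replicates 1 and 2 were the highest for 3 and 1. The medians of the tko25t arrays reached from under to above those of wild-type replicates 2 and 3. The deviations of the 10 from their group means correlated positively for 45 of 45 pairs over the 6 female arrays, with a median Pearson r of 0.885. In males 34 of 45 pairs were positive, with a median of 0.476. The points share the same 6 arrays, their scaling and any unequal share of ovary RNA, so these r are descriptions.

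**Figure D3:**
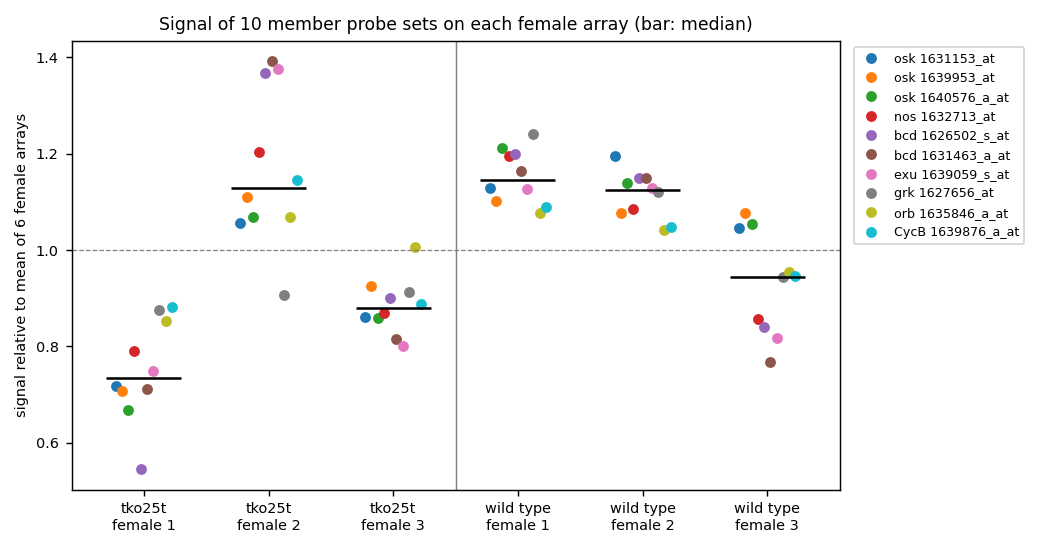
Signal of 10 member probe sets on each female array, as a ratio to the mean of the 6 female arrays, with a bar at the median per array. All 10 points of tko25t replicate 1 lie under 1, from 0.545 to 0.882, while those of tko25t replicate 2 reach 1.39.

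The female array with the lowest maternal transcripts was also the one with most male and most larval fat body transcripts. The male-high exu 1633180_at stood at 5.47%, 1.54% and 1.04% of the mean of the 6 male arrays on tko25t female replicates 1, 2 and 3, against 2.0%, 1.65% and 0.823% on the wild-type female arrays. The testis marker sum of 18 genes stood at 4.71%, 1.36% and 0.891% in tko25t, against 1.77%, 1.80% and 0.982% in wild type. For 15 accessory gland genes the shares were 7.31%, 0.909% and 0.477%, against 2.93%, 1.85% and 0.677%. Replicate 1 of tko25t was the highest in each. Larval fat body transcripts (Lsp2, Fbp1 and Fbp2 summed) also varied most among tko25t females, from 284 on replicate 2 to 5095 on replicate 1. In wild-type females they ran from 200 on replicate 2 to 812 on replicate 3. By array, Lsp2 read 1858, 166 and 771 on tko25t female replicates 1, 2 and 3, against 189, 187 and 661 on the wild-type female arrays. The part of these transcripts in the lower maternal signals was not tested. Without tko25t female replicate 1, 6 of the 10 brighter probe sets kept a negative difference, those of osk (-0.10 with 1639953_at, -0.23 with 1631153_at and -0.24 with 1640576_a_at), grk (-0.25), nos (-0.02) and CycB (-0.02). The differences of both bcd probe sets (0.07 and 0.08), of exu 1639059_s_at (0.05) and of orb (0.02) were positive and that of exu 1633180_at was -0.12, and 0 members were called.

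**Figure D4:**
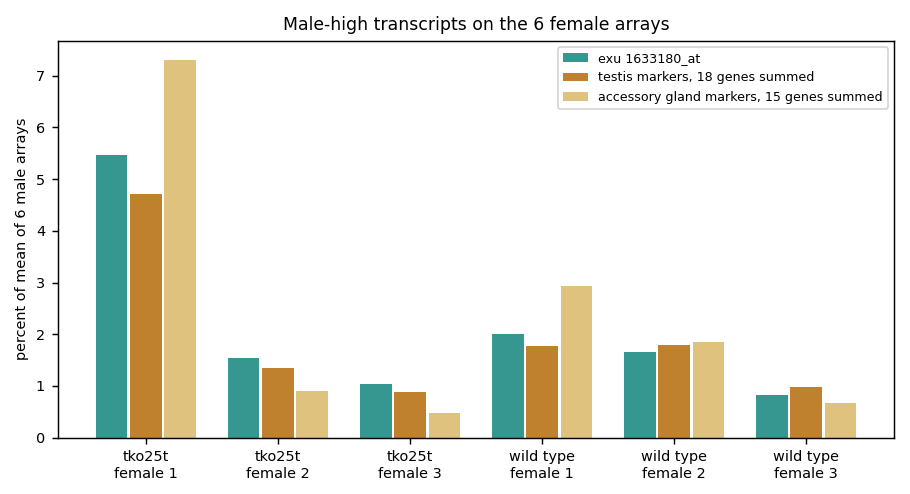
Male-high signals on the 6 female arrays as a percent of their mean on the 6 male arrays, for exu 1633180_at, 18 testis markers summed and 15 accessory gland markers summed. Replicate 1 of tko25t stands apart with 5.47%, 4.71% and 7.31%, and the other 5 arrays lie between 0.477% and 2.93%.

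Within males, only 4 member probe sets were bright enough to be tested, those of grk, CycB and exu. Of these 1 was called, exu 1639059_s_at, which was lower in tko25t, where 11.2% of all 10045 probe sets were called and 5.65% were lower. Its mean signal was 914 ± 126 in tko25t males and 1266 ± 69.4 in wild-type males (SD, n = 3 each), a log2 difference of -0.47 (SE 0.12, limma adjusted p = 0.0342), and all 3 tko25t arrays lay under all 3 wild-type arrays. The call was lost under most alternatives (adjusted p 0.0585 to 0.0840 without any 1 of tko25t replicates 1 and 3 or of the 3 wild-type replicates, and 0.184 with all 12 arrays in the fit), while the difference stayed negative. The summed testis markers were also lower, with 24686 to 30995 in tko25t males and 31506 to 36364 in wild-type males (exact permutation test, p = 0.1, the smallest p that 3 arrays against 3 allow), and their part in the exu value was not tested. The male-high exu 1633180_at gave 0.09 (95% interval -0.16 to 0.34, adjusted p = 0.637), with 2235 ± 268 in tko25t males and 2089 ± 126 in wild-type males.

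The other probe sets tested in males did not pass. For grk the log2 difference was -0.19 (95% interval -0.55 to 0.17, limma adjusted p = 0.471). For CycB the mean was 28.8 ± 9.20 in tko25t males and 107 ± 81.8 in wild-type males (SD, n = 3 each), a log2 difference of -1.30 (SE 0.47, adjusted p = 0.107). The wide spread in wild type came from replicate 1 at 193.5 and replicate 3 at 30.9. The tko25t mean lay under the lowest mean tested, so the probe set was tested in males through the wild-type signals alone. Without replicate 3 of wild type the difference was -1.90 with an adjusted p of 0.0124, without replicate 1 it was -0.77 (adjusted p = 0.242), and with wild-type replicates 1 and 2 both left out, which leaves 1 wild-type array, -0.10 (adjusted p = 0.910).

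The remaining 8 member probe sets had mean signals over the 6 male arrays under the limit of 43.7, where the 25th percentile of a male array was 12 to 17.1. They were examined in a fit of all 18769 probe sets that are not controls. Of all 12 member probe sets 2 were called there, both of osk and both lower in tko25t, where 4.46% of all probe sets were called and 2.32% were lower. The log2 difference was -2.47 with 1639953_at (SE 0.33, limma adjusted p = 0.00618) and -1.83 with 1631153_at (SE 0.35, adjusted p = 0.0232). The offset sets the size of the first, which was -1.25 with 4 times the offset (adjusted p = 0.0145) and -3.60 with 0.25 times the offset (adjusted p = 0.00427). Probe set 1640576_a_at gave -0.85 (SE 0.37, adjusted p = 0.236). SAM, run over the same probe sets after the values were seen, called 1 member, osk 1639953_at, lower in tko25t, where it called 3.07% of all probe sets. The means of 1639953_at were 3.50 ± 2.71 in tko25t males and 75.1 ± 30.5 in wild-type males (SD, n = 3 each), and the tko25t signals were at the floor of the arrays, so no fold is given. For orb the difference was -0.86 (adjusted p = 0.180), for nos -0.75 (adjusted p = 0.258), for bcd -0.78 and -0.09, and for vas 0.09. Without overlap between the male genotypes were 5 of the 12 probe sets, all lower in tko25t, as were 17.4% of all probe sets.

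The wild-type male arrays with most osk were those with most eggshell transcripts. As a percent of the mean of the 6 female arrays, osk 1639953_at stood at 0.270%, 0.0941% and 0.0655% on tko25t male replicates 1, 2 and 3, against 4.15%, 3.36% and 1.71% on the wild-type male arrays. The eggshell and yolk sum stood at 0.620%, 0.347% and 0.404% in tko25t, against 7.03%, 4.15% and 0.611% in wild type (exact permutation test, p = 0.2). Wild-type replicate 3 was within the tko25t range for the eggshell and yolk share and above it for osk 1639953_at. Probe set 1631153_at of osk was also above it there, with 0.117% to 0.488% in tko25t, against 1.22% on that array, whereas 1640576_a_at was within it, with 0.129% to 0.954% in tko25t, against 0.794% on that array. The genes of the eggshell and yolk sum were mixed on that array. By signal, Cp15 (75.1, against 13.4 to 25.6 in tko25t males) and Yp2 (58.2, against 1.9 to 21.1) stood above the tko25t range. Within the range were Yp3 (65.8, against 60.7 to 170.9), Cp36 (9.8, against 7.2 to 47.8) and Vm34Ca (26.7, against 6.6 to 54.6). The range of the sum therefore does not hold for each gene. For bcd 1631463_a_at the shares were 0.415%, 0.709% and 2.13% in tko25t, against 5.99%, 7.33% and 0.367% in wild type. For CycB the shares were 0.787%, 0.591% and 1.12%, against 5.58%, 2.78% and 0.891%, and for orb 0.897%, 1.25% and 0.861%, against 4.44%, 2.76% and 1.37%. Those of nos were 0.639%, 0.919% and 0.0779%, against 1.71%, 1.05% and 0.987%. Of the summed markers, Yp1, Yp2 and Yp3 are yolk proteins also made in the female fat body, and the chorion and vitelline membrane genes are made by follicle cells. Gene by gene, 5 of the 10 eggshell and yolk genes tested in males were called lower in tko25t, where 5.65% of all probe sets were called lower. All 10 differences were negative, with a median of -2.67 on the log2 scale, against -0.01 over all probe sets. Of these genes only Yp3 had a tko25t male mean above the lowest mean tested, 43.7. The others were tested through the wild-type signals alone, which favours a negative difference, so nothing is read from the count or the median. The called genes of smallest p were Cp15 (-3.14, limma adjusted p = 0.0101) and Cp19 (-3.05, adjusted p = 0.0169), which encode chorion proteins, and Yp2 (-3.90, adjusted p = 0.0119). Their tko25t male means were 18.4, 1.83 and 8.97, against 329, 139 and 406 in wild-type males, near or under the offset, and the part of such RNA in the osk values was not tested.

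Some markers of other tissues also differed between the male genotypes. Of the larval fat body genes 3 of 3 were higher in tko25t males, where 5.54% of all probe sets were called higher, and their sum was 3358 to 9245 in tko25t males and 775 to 1251 in wild-type males (exact permutation test, p = 0.1). The log2 differences were 1.83 for Lsp2, a larval serum storage protein (limma adjusted p = 0.00217), 4.37 for Fbp1 (adjusted p = 0.00767) and 4.35 for Fbp2 (adjusted p = 0.0105). Of the testis markers 3 of 15 tested were lower and 14 differences were negative, with Mst84Dd at -0.54, Mst87F at -0.49 and Mst98Cb at -0.42 (adjusted p 0.0176, 0.0280 and 0.0457). Of 15 accessory gland genes 1 was higher, Acp98AB at 0.68 (adjusted p = 0.0182), and 2 were lower, Acp76A at -0.45 (adjusted p = 0.0188) and Acp62F at -0.40 (adjusted p = 0.0405). The other 12 genes of each of these 2 lists were not called. Over all probe sets 5.65% were called lower and 11.2% in either direction. The part of these markers in the values of the members was not tested.

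**Figure D5:**
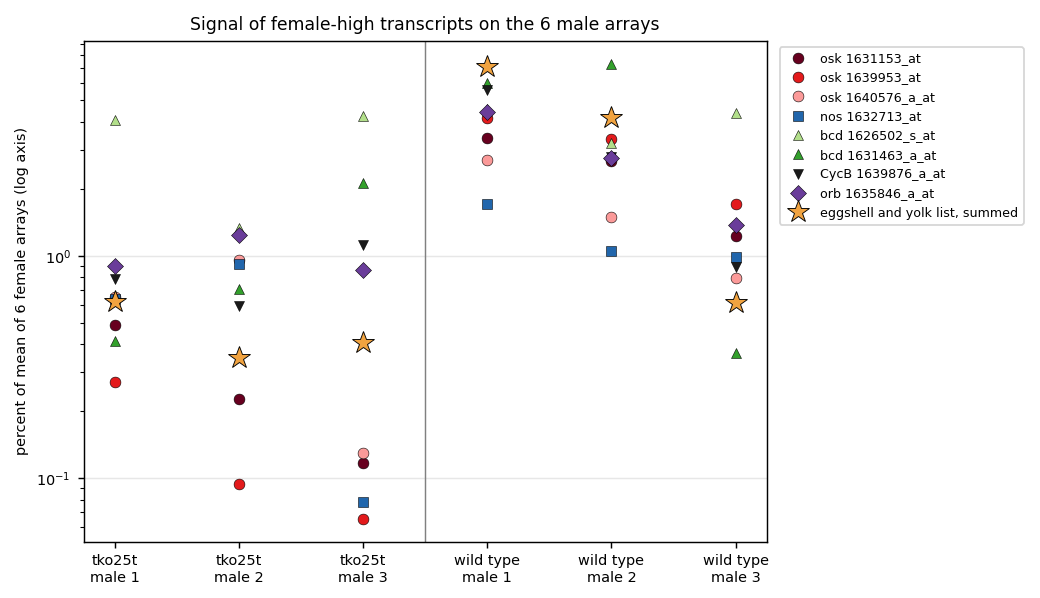
Signal of 8 female-high member probe sets (grk, at 36.9% to 55.3%, is not drawn) and of the summed eggshell and yolk list on each male array, as a percent of the mean of the 6 female arrays (log axis). Wild-type replicates 1 and 2 carry the list at 7.03% and 4.15%, and osk 1639953_at is under 0.3% on each tko25t array and above 1.7% on each wild-type array.

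Without wild-type male replicates 1 and 2, a comparison that leaves 1 wild-type array, assumed to vary like the others, osk 1639953_at had a log2 difference of -1.83 (adjusted p = 0.106) and osk 1631153_at one of -1.15 (adjusted p = 0.221), and 0 members were called. With each array left out in turn, osk 1639953_at stayed called (adjusted p 0.00505 to 0.0294), whereas osk 1631153_at was lost in 5 of 6 cases (adjusted p 0.0185 to 0.0945). The part of ovary-derived RNA in these male signals was not tested further.

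The test of whether tko25t acted differently in females and in males called 1 of 11 member probe sets and 12 of all 11566 (0.104%). The called one, osk 1639953_at, entered this fit through its female signal alone. Its call rests on tko25t male signals at the floor, against 41.7 to 101.5 in wild-type males, and nothing is read from the share. The difference of the effects, female minus male, was 2.20 on the log2 scale (SE 0.34, limma adjusted p = 0.0492). The effects behind it were -0.27 in females and -2.47 in males, and the difference was 0.99 with 4 times the offset and 3.33 with 0.25 times the offset. The adjusted p lay close to the threshold and was between 0.0557 and 0.137 in the 14 alternatives in which the call was lost. For osk 1631153_at the difference was 1.46 (SE 0.37, adjusted p = 0.152), for CycB 1.21 (SE 0.57, adjusted p = 0.405) and for orb 0.79 (SE 0.32, adjusted p = 0.339). The remaining 7 probe sets lay between -0.14 and 0.66, with unadjusted p above 0.05, among them osk 1640576_a_at at 0.44 (adjusted p = 0.704).

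Most other genes of oogenesis were also higher in females, and none of those listed was called between the female genotypes. In 7 lists with 103 genes, 88 genes matched the annotation. In females 0 of 83 tested were called with limma and 9 had an unadjusted p under 0.05, where 2.05% of all probe sets were called and 14.4% had such a p, with a median log2 difference of -0.17. Between the sexes 74 of 84 were higher in females in tko25t and 3 were lower, and in wild type 74 were higher and 4 lower, with medians of 2.07 in tko25t and 2.05 in wild type. Over all probe sets 40.2% were higher and 26.3% lower in tko25t, and 43.0% higher and 29.2% lower in wild type. Of the 84 genes 47 were bright enough to be tested in males. The others entered this fit through their female signal alone, which favours a call higher in females. All 14 genes of the germline piRNA pathway, which silences transposons, and all 14 genes of the maternal cell cycle and egg activation list were higher in females of both genotypes. In each of these 2 lists only 4 genes were bright enough to be tested in males. The median genotype difference of these lists in females was -0.23 for each, and for the cell cycle list 14 of 14 differences were negative, although none was called. The eggshell and yolk genes went the other way in females, with a median of 0.12 over 18 genes tested, 3 of them negative, 0 called and 3 at an unadjusted p under 0.05.

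In males 47 of the 88 genes were bright enough to be tested, and 2 were called higher and 2 lower in tko25t. Over all probe sets 11.2% were called, so nothing is read from this count. The lower ones were dhd, a germline thioredoxin of the egg, and capu, a formin that organises the actin mesh of the oocyte. The signal of dhd was 16.6 ± 13.5 in tko25t males and 329 ± 272 in wild-type males (SD, n = 3 each; log2 difference -3.20, SE 0.69, limma adjusted p = 0.0201), with 5914 ± 555 in tko25t females and 6271 ± 109 in wild-type females. The tko25t male mean lay under the lowest mean tested and the wild-type SD was close to its mean, so this difference was taken against signals near the offset. For capu the signal was 254 ± 2.06 in tko25t males and 359 ± 53.3 in wild-type males (log2 difference -0.47, SE 0.12, adjusted p = 0.0376). Higher in tko25t males were cad, the maternal posterior homeobox gene that is also used in the gut, by 0.48 (SE 0.11, adjusted p = 0.0258) and chic, the fly profilin, by 0.34 (SE 0.09, adjusted p = 0.0450). In the list with capu and chic, which covers localisation and translation of osk RNA, the other 11 of 13 genes tested did not pass in males, and neither did any of the 13 in females.

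The genes whose profile over the 12 arrays was most like the mean of the 11 tested member probe sets were Bap170, CG7840, Cdk2, wdb and Orc1, with Pearson r of 0.994 to 0.995 among 10182 candidates. The signal of Orc1 averaged 308 in tko25t females and 351 in wild-type females, against 18.5 in tko25t males and 37.6 in wild-type males. That of Cdk2 averaged 307.5 in tko25t females and 347 in wild-type females, against 40.7 in tko25t males and 75.3 in wild-type males. With the 4 group means taken off, the closest genes were CG2694, Fadd, SMC1, CG17129 and cno, with r of 0.968 to 0.982. None of the first 5 was among the second 5, so likeness across groups and likeness within groups picked different genes.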

How the data were processed

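The deposited intensities were the authors' MAS5 signals, made with Affymetrix GCOS software, on a linear scale and scaled array by array. The genome build and annotation release behind the array are not given in the sources used here. Trimmed means were equal on the 12 arrays, at 150 each with 2% trimmed at each end, no arrays held identical values, and no further scaling was applied. Probe sets were named by the platform annotation, in which 13646 have 1 symbol, 402 several and 4721 none. A listed gene with several probe sets was represented by the brightest. The members and the gene lists were chosen with earlier results of these data known. All probe sets of the 8 members are named, and of each other list the called genes with the smallest p in the genotype comparisons, at most 3. Likeness was ranked by Pearson r.

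Signals were raised by 11.6 and put on the log2 scale. Genotypes were compared within each sex over 6 arrays, and the sexes and the difference of effects in a fit of all 12 arrays, with limma 3.58.1 in R 4.3.3 (trend on mean signal), Benjamini-Hochberg adjustment over all probe sets tested and a threshold of 0.05 on the adjusted p. Detection p-values were not used here. Instead the brightest probe sets by mean signal were tested, 10045 (53% of those on the array) in males, 9855 (52%) in females and 11566 in the joint fit, without the 183 controls. The limit is set on all arrays of a sex, so a probe set bright in 1 genotype alone can enter. Single values per array were compared with two-sided exact permutation tests. Tables were handled with Python 3.11.15, pandas 2.3.3, numpy 2.4.6 and scipy 1.17.1. On simulated arrays with 200 changed probe sets, 70% of the log2 changes of 1 were found by limma in the male design and 59% in the female design, and 95% and 96% of those of 2. The simulated spread was pooled over all 12 arrays and probe sets varied independently. These shares are therefore a rough guide and not those of the members, which moved together. Alternatives were a higher and a lower offset (4 times and 0.25 times), quantile normalization, no limit on signal, a replicate block, all 12 arrays in the genotype fits, each array left out, the 3 arrays that carried opposite-sex transcripts left out, and SAM on linear signals (s0 of 20, fold of 1.5, false discovery rate of 2.5%) after the methods of the study. SAM ran after the limit on signal, in place of the study's filter on detection p-values, so no osk probe set was tested by it in males; a run on all probe sets was added after the data were seen. The fit of males without a signal limit under these settings was added after the data were seen. Whether equal replicate numbers mark a shared cross is not given in the sources used here, and the array number limits the precision.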

Additional observations from a re-analysis of the deposited data

Results flagged for a closer look

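For osk 1639953_at the test of a different effect of tko25t in the sexes was passed narrowly, with a female effect minus male effect of 2.20 on the log2 scale (limma adjusted p = 0.0492). It rests on tko25t male signals at the floor, in a probe set that its female signal alone brought into the fit. Its size is set by the offset, at 0.99 with 4 times the offset and 3.33 with 0.25 times the offset. This probe set was lower in tko25t males than in wild-type males on all 3 arrays against 3, at signals of 1.6 to 6.6 in tko25t and 41.7 to 101.5 in wild type, and in females the genotypes overlapped. Without the 3 arrays that carried transcripts of the other sex the value was 1.74, and the call was lost in 14 of 18 alternatives. For osk 1640576_a_at the male genotypes overlapped, and the female effect minus the male effect was 0.44 (limma adjusted p = 0.704).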

How the results depend on the processing

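Of 789 values of single member probe sets under the alternative settings, 745 kept their direction and their side of the threshold, 22 lost a call, 2 gained one and 20 changed sign. All values of the members between the sexes in wild type kept both. Among members in males, where 1 was called, 2 were called with no limit on signal, 0 with all 12 arrays in the fit, 0 with SAM (which tested no osk probe set under the signal limit, and called 1, osk 1639953_at, over all probe sets), and 0 to 1 with each array left out. The probe set called by limma, exu 1639059_s_at, was 1.39-fold lower in tko25t males. SAM asked for a fold of 1.5 and so could not call it. For the difference of the effects, where 1 was called, 0 members were called with 4 times the offset, with quantile normalization, with no limit or without the 3 arrays, and 0 to 2 with each array left out. Over all probe sets, calls in males numbered 614 with SAM, 170 without the 3 arrays and 433 to 788 with each array left out. In females they numbered 130 with no limit, 333 with all 12 arrays, 131 without the 3 arrays and 56 to 464 with each array left out. For the difference of the effects they numbered 44 with 4 times the offset, 6 with no limit, 7 without the 3 arrays and 4 to 31 with each array left out. The causes were not tested.

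Values that changed sign were not called. With each array left out, the female log2 difference ran from -0.51 to 0.073 for bcd 1626502_s_at, -0.39 to 0.075 for bcd 1631463_a_at, -0.12 to 0.85 for exu 1633180_at, -0.38 to 0.051 for exu 1639059_s_at (0.0037 without tko25t replicate 3) and -0.14 to 0.019 for orb. The end with the other sign was the value without tko25t replicate 1 for each of these, and so also without the 3 arrays. The difference of the effects ran from -0.43 to 0.16 for bcd 1626502_s_at, -0.21 to 0.76 for exu 1633180_at and -0.20 to 0.0072 for grk. Without the 3 arrays it was 0.19 for bcd 1626502_s_at, -0.29 for exu 1633180_at and -0.19 for bcd 1631463_a_at, and it was -0.023 for osk 1640576_a_at with 4 times the offset. In tko25t females against tko25t males, exu 1639059_s_at ran from -0.23 to 0.20 (-0.071 without male replicate 3).

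Same-numbered arrays deviated together only in part. Between the female genotypes r was -0.04, 0.45 and 0.45 for replicates 1, 2 and 3, and between the male genotypes 0.02, -0.16 and 0.13. The numbers were not taken to pair the samples. With the replicate block, 327 probe sets were called in females (202 without it), 957 in males (1124 without it) and 11 for the difference of the effects (12 without it). The counts of members called were 0, 1 and 1, and 10 in each comparison of the sexes. Signals near the floor limit what the dim probe sets can show, which holds for 8 of 12 members in males and for vas in both sexes.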
